A study of Mus musculus with 9 samples.

Results

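The mitochondrial ribosomal protein genes were followed in myeloid progenitors that carry the NUP98-HOXA10hd fusion gene. Their members are the genes whose symbol starts with Mrpl (large subunit) or Mrps (small subunit) and a digit, without symbols that hold -ps. This gave 77 genes, 48 Mrpl and 29 Mrps, of the 37980 genes in the table. The reference names 78 such symbols, and the remaining one, Mrpl33, was not analysed here. All 77 passed the filter on low counts. The study transplanted multipotent progenitors (MPPs) of C57BL/6 mice, mixed with bone marrow helper cells, into lethally irradiated adult C57BL/6 recipients. It sequenced the poly(A) RNA of bone marrow myeloid progenitors (MPs, Lin-ckit+Sca1-), with 100000 sorted cells per sample. The 4 NA MP samples were Tdtomato+ cells derived from donor MPPs that expressed the fusion (NA) from the Rosa26 locus after recombination by a Cre under the Vav promoter, which is active across blood lineages. The 5 WT MP samples were CD45.2+ cells of recipients of WT MPPs. Both were sorted 3 months after transplantation by the labels, while the study's methods name a later month. Donor ages are not given, and no source says whether each sample is 1 mouse, so p-values measure the spread between these samples. The study's recipients were CD45.2+, and its other assays followed WT donor cells by the other CD45 allele. Whether the WT MPs came from the transplanted MPPs, the helper cells or the host could not be told from the sort. Donor origin and genotype therefore cannot be told apart.

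Between 5557718 and 8106140 reads per sample were assigned to genes, and 0.321% to 0.357% of them fell on the 77 members. Levels are given as CPM, reads scaled to a common library total, on edgeR's TMM scale. Reads at both partner genes of the fusion were higher in NA MPs, and counts per gene cannot tell transgene reads from endogenous ones. Hoxa10 stood at 19.4 ± 2.68 CPM in NA MPs (SD, n = 4) and 1.21 ± 0.386 CPM in WT MPs (SD, n = 5), a log2 fold change of 3.96 (SE 0.173, edgeR adjusted p = 8.72e-26). Nup98 stood at 144 ± 12.4 CPM in NA MPs (SD, n = 4) and 90.0 ± 4.48 CPM in WT MPs (SD, n = 5), a log2 fold change of 0.68 (SE 0.048, edgeR adjusted p = 4.83e-14). The neutrophil markers, which hold genes of early and of later neutrophils, summed to 23502 to 26019 CPM in NA MPs and 22833 to 23749 CPM in WT MPs. The 5 T cell markers summed to at most 1.12 CPM in any sample. In bulk RNA, fewer cells of a type and less RNA per cell cannot be told apart.

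Mitochondria have ribosomes of their own, which translate the few mRNAs of the mitochondrial genome into core subunits of the respiratory chain and the ATP synthase. Their rRNAs are encoded in the mitochondrial genome, but their proteins are encoded in the nucleus, made on cytosolic ribosomes and imported. The small subunit decodes the mRNA and the large subunit holds the peptidyl transferase centre and an exit tunnel facing the inner membrane. Many of the proteins have a homologue in bacterial ribosomes and others are found only in mitochondria. In blood, mitochondrial translation is known for its part in erythroid maturation and in the energy supply of progenitors that leave quiescence.

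Most mitochondrial ribosomal protein genes differed little between NA MPs and WT MPs, and those that passed the test were mostly lower in NA MPs. Of the 77 members, 12 fell (edgeR quasi-likelihood test, adjusted p under 0.05 over all 11953 genes tested), 1 rose and 64 did not pass the test. Of all genes tested, 34.1% were called in either direction, 17.9% as higher and 16.3% as lower, so the members' share of lower calls was near that of the background and their share of higher calls was below it. With DESeq2, 6 members were called lower and 0 higher (13 and 1 at an unadjusted p under 0.05), where 9.45% of all genes it tested were lower and 11.0% higher. Among the genes within the members' range of average expression, 15.5% were called higher and 16.3% lower. The log2 fold change was negative in 57 of the 77 members, called or not, against 50.2% of all genes tested. Its median over the members was -0.046, and -0.0010 over all genes tested.

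**Figure D1:**
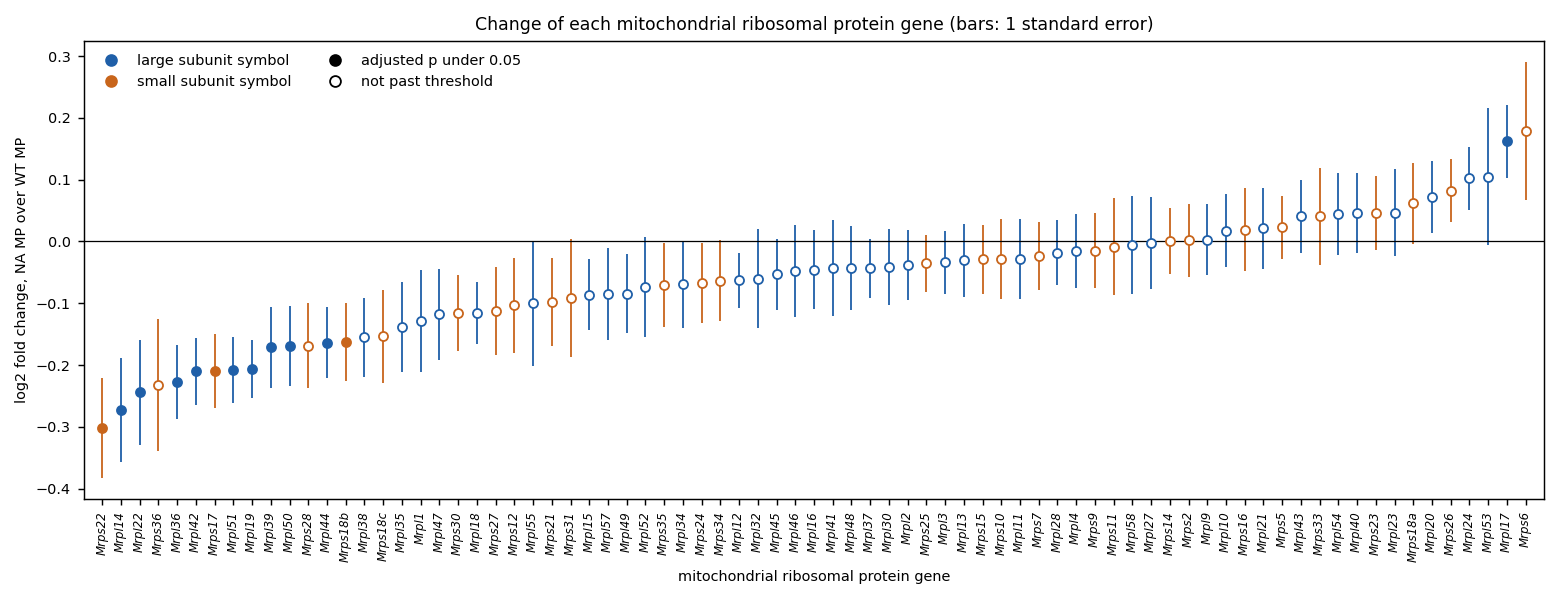
Log2 fold change of NA MPs over WT MPs (y axis) for each of the 77 members, ordered from the lowest to the highest value (x axis, gene symbols), with bars of 1 standard error, blue for large subunit symbols and orange for small subunit symbols, and filled points for an edgeR adjusted p under 0.05. Filled points gather at the left end, with Mrpl17 the single filled point on the right, and the values run from -0.30 to 0.18.

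No member changed by a large factor. The largest change was that of Mrps22, 1.23-fold lower, and 19.1% of all genes tested changed by more. For all 77 members the log2 fold change with 2 standard errors on either side lay within 0.5 of zero, as it did for 75.7% of all genes tested. In 9 members the highest NA MP sample was below the lowest WT MP sample, against 12.2% of all genes tested. In 0 members the lowest NA MP sample was above the highest WT MP sample, against 14.2% of all genes tested.

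Markers of some cell types differed between the groups, and their counts stand beside 17.9% higher and 16.3% lower calls over all genes tested. Of 12 erythroid markers 11 fell and 0 rose (median log2 fold change -0.88), and their summed level was 822 to 1055 CPM in NA MPs and 1517 to 1691 CPM in WT MPs. All 10 pro-B and pre-B markers tested rose, and their sum was 206 to 370.4 CPM in NA MPs and 54.0 to 59.1 CPM in WT MPs. Of 8 mast cell and basophil markers 6 rose and 1 fell (summed 571 to 657 against 401 to 441 CPM), of 9 neutrophil markers 7 rose and 0 fell, of 6 monocyte markers 2 rose and 2 fell (summed 1303 to 1546 against 1299.5 to 1416 CPM), and of 6 megakaryocyte markers 1 rose and 2 fell (summed 212 to 245 against 209.6 to 235 CPM). Of the 5 T cell markers, Cd3e and Cd3g were at 0 in every sample and none reached the filter. Of 14 proliferation genes 8 fell and 0 rose (median -0.12), with a summed level of 3647 to 3897 CPM in NA MPs and 4129 to 4272 CPM in WT MPs. All 9 immediate early genes tested rose (summed 1801 to 3928 against 366 to 814 CPM). The part of any of these in the values of the mitochondrial ribosomal protein genes was not tested.

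Since the members are spread over 17 chromosomes, their promoters were read for what they share. RefSeq promoters (GRCm38.p6) from 250 bases before to 50 bases after the start were at hand for 68 of the 77 members (not for Mrpl4, Mrpl13, Mrpl15, Mrpl19, Mrpl38, Mrpl54, Mrps28, Mrps34 and Mrps35), in 74 windows. Searched on both strands were CCGGAAG, the core bound by ETS proteins such as GABP, AAGATGGC, that of YY1, GCATGCGC, that of NRF1, and CACGTG, the E-box bound by MYC. None of these words holds another. CCGGAAG was in 33.8% of the members' windows, in 18.4% of the 11542 windows of tested genes and in 8.86% of all 32851 windows. AAGATGGC was in 16.2%, 4.70% and 2.75%, in the same order. GCATGCGC was in 9.46%, 5.39% and 2.71%, and CACGTG in 9.46%, 10.2% and 7.15%. Some genes have several windows, which can overlap, and the 7 member windows with CACGTG came from 5 genes. By gene, CACGTG was in 5 of 68 members and in 1095 of 9034 tested genes. Between the subunits, CCGGAAG was in 29.8% of 47 large subunit windows and 40.7% of 27 small subunit windows. AAGATGGC was in 12.8% of the large and 22.2% of the small subunit windows. GCATGCGC was in 6 large subunit windows (12.8%) and 1 small subunit window (3.70%), and so was CACGTG. These differences were not tested. Among 11 windows of members that fell, 4 held CCGGAAG and 3 held GCATGCGC, and among 62 windows of members that did not pass, 20 held CCGGAAG and 3 held GCATGCGC. A match is a description of the letters and not a bound site.

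**Figure D2:**
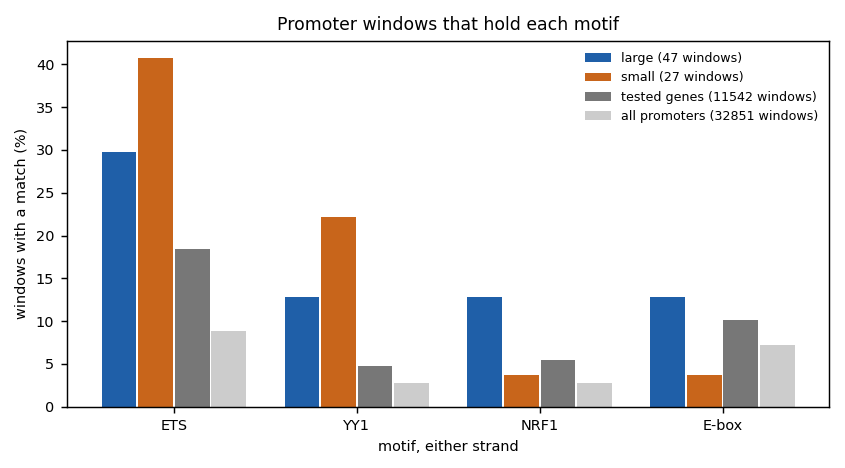
Share of promoter windows, in percent (y axis, from 0), that hold each searched word on either strand (x axis), for large subunit members (blue), small subunit members (orange), tested genes (dark grey) and all promoters (light grey). The ETS and YY1 words stand above the tested genes in both subunits.

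The 250 bases before the start are shown for the member that rose and the 2 with the largest falls, and for Mrpl36, a fallen member chosen after the sequences were seen because it holds 2 kinds of the searched words there. Capitals mark those words, on the strand of the gene and so reversed and complemented where they lie on the other strand. The windows are Mrpl17 at chr7:105811088-105811337, minus strand, Mrps22 at chr9:98601680-98601929, minus strand, Mrpl14 at chr17:45686099-45686348, plus strand and Mrpl36 at chr13:73330759-73331008, plus strand. RefSeq and GENCODE starts can differ, and the Mrpl36 window lies inside the gene as GENCODE draws it.
Mrpl17: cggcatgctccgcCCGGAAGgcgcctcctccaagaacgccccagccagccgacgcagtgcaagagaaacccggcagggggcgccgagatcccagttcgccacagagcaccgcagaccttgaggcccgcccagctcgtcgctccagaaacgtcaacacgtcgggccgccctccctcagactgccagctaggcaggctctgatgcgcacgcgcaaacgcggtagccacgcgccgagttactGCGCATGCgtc
Mrps22: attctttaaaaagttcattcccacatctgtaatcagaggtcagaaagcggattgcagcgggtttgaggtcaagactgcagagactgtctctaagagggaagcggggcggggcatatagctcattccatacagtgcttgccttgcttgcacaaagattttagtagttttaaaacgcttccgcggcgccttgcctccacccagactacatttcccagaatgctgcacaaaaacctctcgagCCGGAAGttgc
Mrpl14: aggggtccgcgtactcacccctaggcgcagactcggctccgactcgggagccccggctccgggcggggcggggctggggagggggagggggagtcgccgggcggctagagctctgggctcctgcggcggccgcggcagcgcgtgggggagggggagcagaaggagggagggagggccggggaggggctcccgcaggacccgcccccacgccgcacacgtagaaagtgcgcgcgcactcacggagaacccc
Mrpl36: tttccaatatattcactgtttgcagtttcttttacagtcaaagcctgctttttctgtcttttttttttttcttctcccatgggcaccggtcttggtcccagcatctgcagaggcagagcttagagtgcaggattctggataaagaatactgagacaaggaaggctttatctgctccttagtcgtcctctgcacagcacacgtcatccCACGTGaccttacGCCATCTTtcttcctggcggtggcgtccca
Mrpl17 holds an ETS word far from the start and an NRF1 word near it, Mrps22 an ETS word next to the start, Mrpl14 none of the searched words, and Mrpl36 an E-box followed by a YY1 word.

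The large and the small subunit were then compared. The 48 Mrpl genes summed to 2139, 2122, 2119.7 and 2075 CPM in the NA MP samples and to 2265, 2233, 2174, 2179 and 2171 CPM in the WT MP samples. The groups did not overlap, and the mean in NA MPs was 95.9% of that in WT MPs. The 29 Mrps genes summed to 1201, 1214, 1196 and 1175 CPM in the NA MP samples and to 1287, 1234, 1213, 1244 and 1198 CPM in the WT MP samples. In this sum the groups overlapped, and the mean in NA MPs was 96.9% of that in WT MPs. The ratio of the large to the small sum was 1.77 ± 0.0138 in NA MPs (SD, n = 4) and 1.79 ± 0.0280 in WT MPs (SD, n = 5). These groups overlapped, and the difference was smaller than the SD in WT MPs but not than that in NA MPs. In the mean log2 CPM of the genes, in which each gene weighs the same, neither subunit overlapped: the highest NA MP and the lowest WT MP sample were at 5.37 and 5.39 for the large and, only just apart, at 5.2495 and 5.2505 for the small subunit. Of the 48 Mrpl genes 1 rose, 9 fell and 38 did not pass the test, with a median log2 fold change of -0.047. Of the 29 Mrps genes 0 rose (0 also at an unadjusted p under 0.05 with edgeR and with DESeq2), 3 fell and 26 did not pass, with a median of -0.035. The small subunit median was -0.054 without NA MP replicate 1, -0.022 without WT MP replicate 1 and -0.056 with library size only. When the fit corrected for the GC content and length of the longest transcript, the medians were -0.070 in the large and -0.069 in the small subunit. Of all genes tested, 17.9% were called higher and 16.3% lower. The difference between the subunits was not tested, since members are not replicates.

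**Figure D3:**
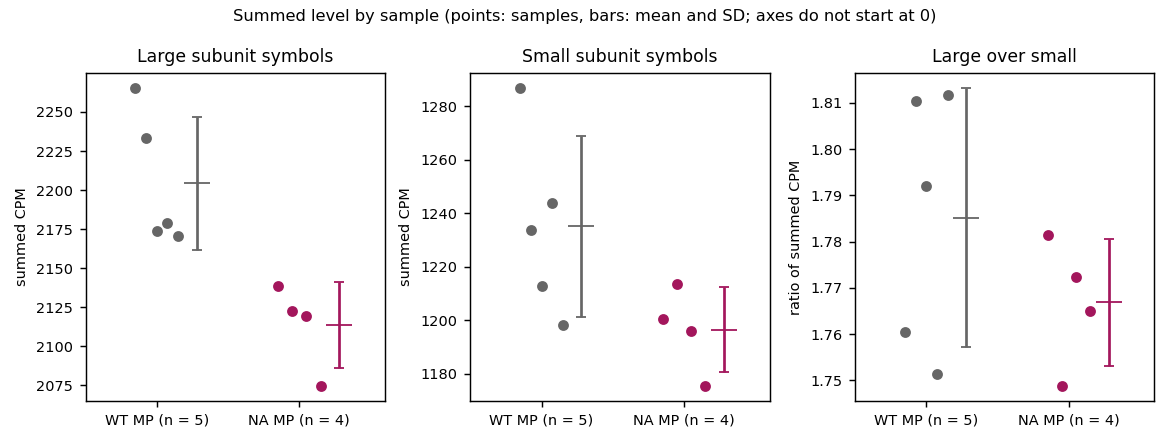
Summed CPM of the 48 Mrpl genes, summed CPM of the 29 Mrps genes and their ratio (y axes, which do not start at 0) in WT MPs (grey, n = 5) and NA MPs (magenta, n = 4), with points for samples and bars for mean and SD. In summed CPM the groups are apart for the large subunit and overlap for the small subunit, and they overlap for the ratio.

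Among the large subunit genes, Mrpl17 (chr7:105803206-105811099, minus strand, GRCm38) rose. It encodes a homologue of bacterial L17 and was measured at 55.8, 56.4, 53.5 and 51.3 CPM in the NA MP samples and 50.3, 52.0, 45.0, 43.9 and 50.1 CPM in the WT MP samples, a log2 fold change of 0.16 (SE 0.059, edgeR adjusted p = 0.0282). The highest WT MP sample lay above the lowest NA MP sample, and an exact two-sided permutation test of this gene alone gave p = 0.0317, with 0.0159 the smallest that 4 against 5 samples allow. Without NA MP replicate 1, NA MP replicate 2, WT MP replicate 3 or WT MP replicate 4 the call was lost. It was also lost with DESeq2, with library size only and at an adjusted p under 0.01. Over all alternatives the adjusted p ranged from 0.00150 to 0.138 (edgeR, DESeq2 and limma). Its promoter window holds an ETS and an NRF1 word.

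Mrpl14 (chr17:45686322-45698495, plus strand) had the largest fall of the large subunit. It encodes a homologue of bacterial L14, a protein at the face that meets the small subunit, and was measured at 18.7, 21.2, 18.8 and 18.3 CPM in the NA MP samples and 24.0, 23.3, 22.3, 21.3 and 25.2 CPM in the WT MP samples. All NA MP samples were below all WT MP samples, by a narrow margin for NA MP replicate 2, with a log2 fold change of -0.27 (SE 0.085, edgeR adjusted p = 0.00931). Of 22 alternatives 1, DESeq2, lost the call, with adjusted p from 0.000370 to 0.0638 over them. Mrpl22 (chr11:58171661-58179565, plus strand) encodes a homologue of bacterial L22, which lines the exit tunnel, and was measured at 18.7, 21.5, 23.2 and 21.7 CPM in the NA MP samples and 26.7, 28.3, 22.0, 24.0 and 24.9 CPM in the WT MP samples. WT MP replicate 3 lay within the NA MP samples, with a log2 fold change of -0.24 (SE 0.084, edgeR adjusted p = 0.0204). The call of Mrpl22 was lost without NA MP replicate 1, without WT MP replicate 2, with DESeq2 and at an adjusted p under 0.01. Over all alternatives the adjusted p ranged from 0.00841 to 0.101 (edgeR, DESeq2 and limma). The Mrpl14 exons overlap those of Tmem63b on the opposite strand, and whether counting used strand is not given in the sources used here.

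The next 4 large subunit genes fell under every alternative tried. Mrpl36 (chr13:73328513-73332178, plus strand), a homologue of the small bacterial protein L36, was measured at 49.6, 47.7, 42.7 and 43.8 CPM in the NA MP samples and 55.6, 55.8, 55.4, 49.9 and 51.5 CPM in the WT MP samples, a log2 fold change of -0.23 (SE 0.059, edgeR adjusted p = 0.00197). The groups did not overlap, with WT MP replicate 4 only just above NA MP replicate 1. Mrpl42 (chr10:95480805-95501940, minus strand), which has no bacterial homologue, was measured at 60.1, 54.7, 60.5 and 56.5 CPM in the NA MP samples and 72.0, 65.4, 63.2, 70.3 and 64.0 CPM in the WT MP samples, a log2 fold change of -0.21 (SE 0.054, edgeR adjusted p = 0.00158). The lowest WT MP sample stood above the highest NA MP sample. Mrpl51 (chr6:125191801-125196269, plus strand), likewise without a bacterial homologue, was measured at 60.0, 65.8, 64.1 and 61.0 CPM in the NA MP samples and 80.7, 75.9, 68.7, 69.0 and 68.1 CPM in the WT MP samples, a log2 fold change of -0.21 (SE 0.054, edgeR adjusted p = 0.00173). WT MP replicates 1 and 2 were the high samples here. Mrpl19 (chr6:81957851-81965958, minus strand), a homologue of bacterial L19, was measured at 75.9, 71.6, 74.1 and 72.6 CPM in the NA MP samples and 85.3, 81.5, 91.4, 83.6 and 82.8 CPM in the WT MP samples, a log2 fold change of -0.21 (SE 0.047, edgeR adjusted p = 0.000436). Its adjusted p was the lowest of all members, and the groups did not overlap. The exons of Mrpl36, Mrpl51 and Mrpl19 overlap those of another gene (Ndufs6, Mir3098 and Gcfc2), those of Mrpl42 do not.

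The other 3 large subunit genes that fell did so with overlapping groups. They were Mrpl39, with a log2 fold change of -0.17 (SE 0.065, edgeR adjusted p = 0.0366), Mrpl50, with a log2 fold change of -0.17 (SE 0.065, edgeR adjusted p = 0.0389), and Mrpl44, with a log2 fold change of -0.16 (SE 0.057, edgeR adjusted p = 0.0210). None of the 3 was called with DESeq2 or at an adjusted p under 0.01. None has a ribosomal homologue in bacteria, and Mrpl44, whose exons overlap those of Wdfy1, is related to ribonuclease III. Of the 38 large subunit genes that did not pass the test, Mrpl38 came nearest, with a log2 fold change of -0.16 (SE 0.064, edgeR adjusted p = 0.0537). On the positive side the nearest was Mrpl24, with a log2 fold change of 0.10 (SE 0.051, edgeR adjusted p = 0.122).

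Among the small subunit genes, Mrps22 (chr9:98588730-98601660, minus strand) had the largest fall of all members. It encodes a protein found only in mitochondrial ribosomes and was measured at 19.7, 20.1, 20.8 and 22.8 CPM in the NA MP samples and 24.5, 28.1, 26.0, 26.4 and 24.1 CPM in the WT MP samples. NA MP replicate 4 was the highest NA MP sample and stayed below the lowest WT MP sample, with a log2 fold change of -0.30 (SE 0.081, edgeR adjusted p = 0.00264). Mrps17 (chr5:129715497-129722556, plus strand), a homologue of bacterial S17, was measured at 42.8, 47.6, 39.8 and 43.0 CPM in the NA MP samples and 52.0, 48.1, 50.5, 50.9 and 49.4 CPM in the WT MP samples, a log2 fold change of -0.21 (SE 0.060, edgeR adjusted p = 0.00481). The groups did not overlap, although NA MP replicate 2 came close to WT MP replicate 2. No exons of other genes overlap these genes, and both kept their call under every alternative tried.

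The 3 genes Mrps18a, Mrps18b and Mrps18c are paralogues related to bacterial S18 whose products occupy 3 different places: Mrps18c takes the place of S18, Mrps18b sits elsewhere in the small subunit and Mrps18a in the large subunit. Mrps18b was measured at 37.7, 44.1, 42.9 and 40.3 CPM in the NA MP samples and 48.6, 47.0, 42.5, 49.1 and 43.7 CPM in the WT MP samples, a log2 fold change of -0.16 (SE 0.063, edgeR adjusted p = 0.0405). WT MP replicates 3 and 5 lay among the NA MP samples, and the call was lost in 7 of 22 alternatives. Its exons overlap those of Gm16279 on the opposite strand. Mrps18c was measured at 28.3, 24.1, 31.6 and 26.9 CPM in the NA MP samples and 31.9, 30.3, 29.8, 32.5 and 29.1 CPM in the WT MP samples, with a log2 fold change of -0.15 (SE 0.075, edgeR adjusted p = 0.113). NA MP replicate 3 was among the WT MP values, and without it Mrps18c was called lower, the single alternative of 22 in which it was (adjusted p from 0.0339 to 0.410, edgeR, DESeq2 and limma). Mrps18a was measured at 35.3, 34.9, 36.7 and 36.9 CPM in the NA MP samples and 36.2, 34.4, 33.1, 35.0 and 33.9 CPM in the WT MP samples, with a log2 fold change of 0.062 (SE 0.065, edgeR adjusted p = 0.504). The paralogues thus held a called fall, a value of similar size that did not pass and a positive value that did not pass. The differences between them were not tested.

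Mrps30, whose product also belongs to the large subunit despite its symbol, was measured at 46.0, 45.0, 43.2 and 45.9 CPM in the NA MP samples and 56.4, 47.5, 46.5, 47.6 and 46.6 CPM in the WT MP samples. All NA MP samples were below all WT MP samples, and WT MP replicate 1 stood apart from the other WT MP samples. The log2 fold change of -0.12 (SE 0.062, edgeR adjusted p = 0.145) did not pass. Mrps28, with a log2 fold change of -0.17 (SE 0.069, edgeR adjusted p = 0.0504), lay just outside the threshold. The largest values that did not pass belonged to the 2 members lowest in CPM in NA MPs. Mrps36, whose product is now known as a component of the 2-oxoglutarate dehydrogenase complex, had a log2 fold change of -0.23 (SE 0.107, edgeR adjusted p = 0.0894), and Mrps6, a homologue of bacterial S6 whose exons overlap those of Slc5a3 on the same strand, had a log2 fold change of 0.18 (SE 0.112, edgeR adjusted p = 0.227).

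**Figure D4:**
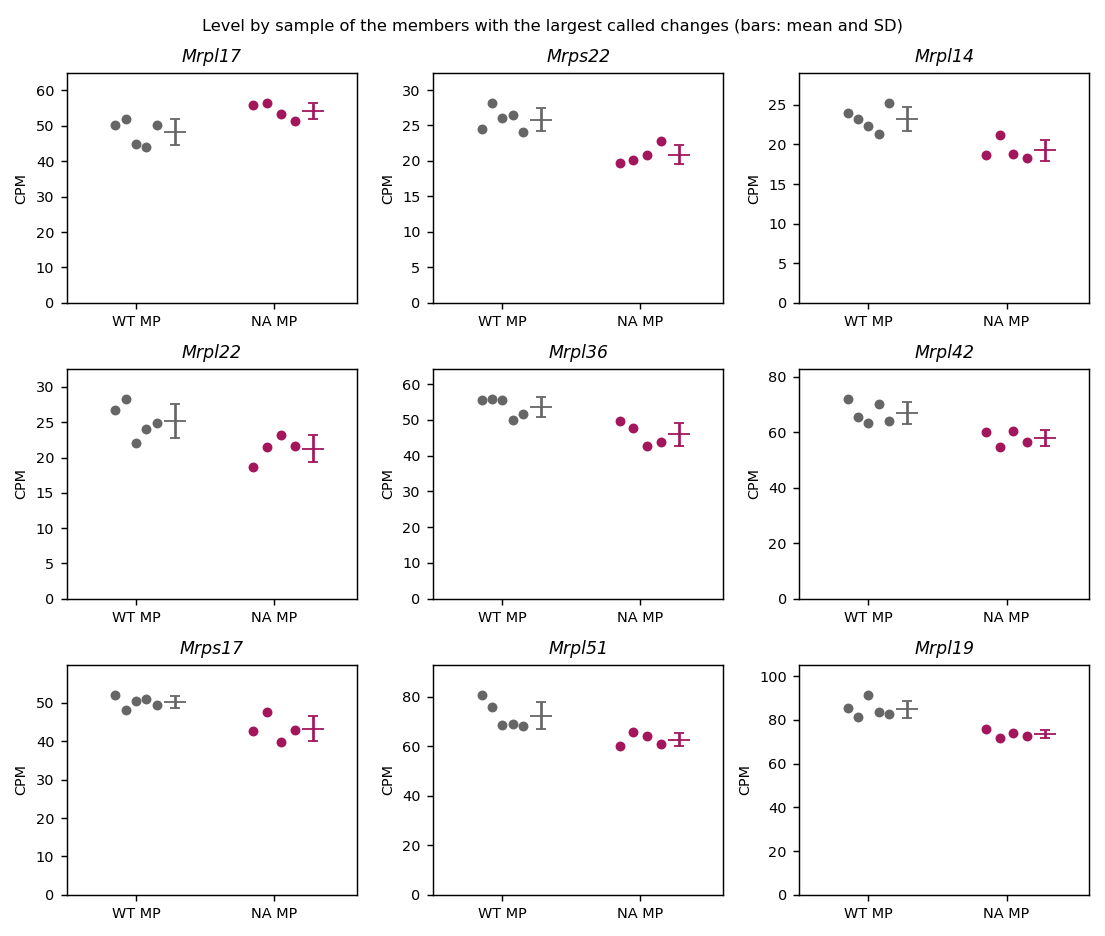
CPM on the TMM scale (y axes, from 0) of Mrpl17 and of the 8 members with the largest called falls, in each WT MP sample (grey, n = 5) and NA MP sample (magenta, n = 4), with bars for mean and SD. Mrps22, Mrpl14, Mrpl36, Mrpl42, Mrps17, Mrpl51 and Mrpl19 show no overlap between the groups, while Mrpl17 and Mrpl22 do.

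The subunits were also read by the place of the protein in the ribosome, with Mrps18a and Mrps30 moved to the large subunit and Mrps36 left out. The median log2 fold change was then -0.047 over 50 large subunit genes and -0.032 over 26 small subunit genes. Of the S18-related genes, Mrps18c, which takes the place of S18, was counted as having a bacterial homologue and Mrps18a and Mrps18b as having none. Among genes with a bacterial homologue, 1 rose and 4 fell of 29 in the large subunit (median -0.042), and 0 rose and 1 fell of 16 in the small subunit (median -0.026). Among genes without one, 0 rose and 5 fell of 21 in the large subunit (median -0.053), and 0 rose and 2 fell of 10 in the small subunit (median -0.067). Falls thus occurred in both kinds of protein and both subunits, in 6.25% to 23.8% of the genes. Of all genes tested, 16.3% were called lower and 17.9% higher. Differences between the kinds were not tested. Of the 3 stalk genes Mrpl10, Mrpl11 and Mrpl12, at which translation factors bind, 0 passed the test. Of the 6 genes around the exit tunnel (Mrpl22, Mrpl23, Mrpl24, Mrpl44, Mrpl45 and Mrpl47) 2 fell. Both groups are too small to set against the 34.1% of all genes tested that were called in either direction.

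Levels between genes were compared per length, as CPM per kilobase of exon. The highest was Mrpl12, the stalk protein that also binds the mitochondrial RNA polymerase, with 64.1 ± 1.26 CPM per kb in NA MPs (SD, n = 4) and 67.0 ± 4.06 CPM per kb in WT MPs (SD, n = 5). Mrpl34, a homologue of bacterial L34, had 54.6 ± 2.68 CPM per kb in NA MPs (SD, n = 4) and 57.4 ± 5.14 CPM per kb in WT MPs (SD, n = 5), and Mrpl18, a homologue of bacterial L18, had 52.2 ± 2.46 CPM per kb in NA MPs (SD, n = 4) and 56.5 ± 3.55 CPM per kb in WT MPs (SD, n = 5). In WT MPs the levels of Mrpl34 and Mrpl18 differed by less than their SDs. The lowest were Mrps35, Mrpl48 and Mrpl32. Mrps35 had 4.46 ± 0.168 CPM per kb in NA MPs (SD, n = 4) and 4.66 ± 0.450 CPM per kb in WT MPs (SD, n = 5), Mrpl48 had 4.50 ± 0.319 CPM per kb in NA MPs (SD, n = 4) and 4.63 ± 0.315 CPM per kb in WT MPs (SD, n = 5) and Mrpl32 had 4.69 ± 0.249 CPM per kb in NA MPs (SD, n = 4) and 4.91 ± 0.377 CPM per kb in WT MPs (SD, n = 5). These 3 and the next, Mrps10, with 4.82 ± 0.348 CPM per kb in NA MPs (SD, n = 4) and 4.94 ± 0.215 CPM per kb in WT MPs (SD, n = 5), had overlapping ranges of mean ± SD in WT MPs. None of the 3 highest and 3 lowest passed the test between NA MPs and WT MPs, with log2 fold changes from -0.12 to -0.043 and adjusted p from 0.0701 to 0.668 (edgeR). Over the 22 alternatives Mrpl18 was called lower in 6 (adjusted p from 0.0254 to 0.202) and Mrpl12 in 1 (from 0.0202 to 0.544; edgeR, DESeq2 and limma). In CPM, Mrpl12 was measured at 95.8, 97.7, 100.4 and 98.9 CPM in the NA MP samples and 109.8, 108, 103, 98.3 and 94.9 CPM in the WT MP samples. The exon length counts every annotated isoform, so a gene with a long rare isoform is placed too low on this scale.

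In the other lists of mitochondrial genes most members did not pass the test, and their counts stand beside 16.3% lower and 17.9% higher calls over all genes tested (edgeR). The assembly genes and translation factors held a share of falls near this background. Of 5 ribosomal proteins that carry other symbols (Dap3, Ptcd3, Aurkaip1, Chchd1 and Gadd45gip1), 1 fell and 0 rose (median log2 fold change -0.071). It was Ptcd3, of the small subunit, with a log2 fold change of -0.16 (SE 0.049, edgeR adjusted p = 0.00895). Of 26 genes of ribosome assembly and rRNA modification, 4 fell and 1 rose (median -0.028). The falls included Fastkd2, an RNA-binding protein needed for the large rRNA, with a log2 fold change of -0.28 (SE 0.075, edgeR adjusted p = 0.00247), and the GTPase Noa1, with a log2 fold change of -0.27 (SE 0.055, edgeR adjusted p = 7.92e-05), and the rise was that of the ribosome binding factor Rbfa, with a log2 fold change of 0.12. Of 13 translation factors tested, 2 fell and 1 rose (median -0.065). The elongation factors Gfm1 and Tufm fell, with log2 fold changes of -0.15 and -0.13, and Mtfmt, which formylates the initiator tRNA, rose, with a log2 fold change of 0.22 (SE 0.082, edgeR adjusted p = 0.0336).

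Of 20 mitochondrial aminoacyl-tRNA synthetases and related enzymes, 5 fell and 0 rose (median -0.075), led by the methionyl-tRNA synthetase Mars2, with a log2 fold change of -0.48 (SE 0.080, edgeR adjusted p = 3.29e-06). Of 20 genes that maintain mitochondrial DNA and RNA, 4 fell and 0 rose (median -0.10), led by Lrpprc, which stabilises mitochondrial mRNAs, with a log2 fold change of -0.29 (SE 0.042, edgeR adjusted p = 1.61e-07). Of 13 genes of protein import and folding, 5 fell and 0 rose (median -0.068). The chaperonins Hspd1 and Hspe1, neighbours on opposite strands whose exons overlap, had log2 fold changes of -0.26 and -0.26. Of 12 mitochondrial mRNAs tested, 4 fell and 0 rose (median -0.095), led by mt-Nd3, with a log2 fold change of -0.35 (SE 0.074, edgeR adjusted p = 0.00615). In 2 of the 12 all NA MP samples were below all WT MP samples, against 12.2% of all genes tested. Summed over all 13 counted, the groups overlapped, at 25460 to 30008 CPM in NA MPs and 28216 to 30013 CPM in WT MPs. Both mitochondrial rRNAs were counted, and the small rRNA mt-Rnr1 rose, with a log2 fold change of 0.25 (SE 0.058, edgeR adjusted p = 0.00138). Its groups overlapped, with NA MP replicate 2 at 83.1 CPM inside the WT MP range of 81.5 to 84.7 CPM. Poly(A) selection captures these rRNAs only in part. With DESeq2 fewer were called in several lists. The assembly list held 2 falls and 0 rises (4 and 1 at an unadjusted p under 0.05). The translation factors held 0 falls and 0 rises (2 and 1 at an unadjusted p under 0.05). Falls numbered 3 among the synthetases, 3 in DNA and RNA maintenance and 4 in import and folding. Counts were unchanged for mitochondrial mRNAs (4 falls), mitochondrial rRNAs (1 rise) and the ribosomal proteins with other symbols (1 fall). In each of these lists with 0 rises in edgeR, 0 genes rose at an unadjusted p under 0.05 with either tool. In the same samples 59 of 78 cytosolic ribosomal protein genes rose and 0 fell (median 0.094).

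**Figure D5:**
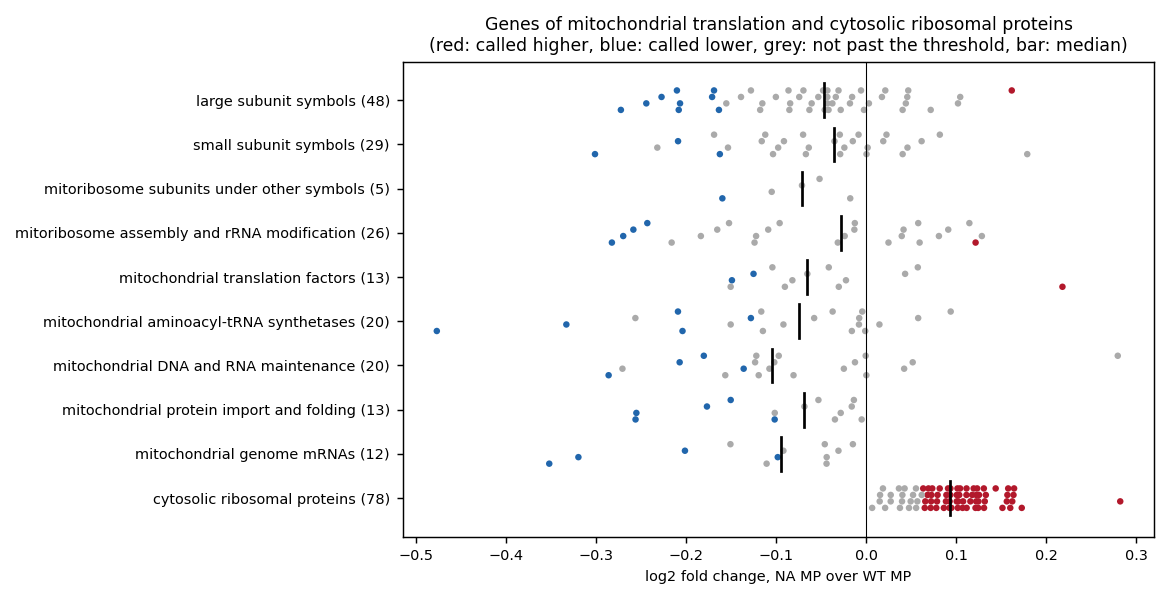
Log2 fold change of NA MPs over WT MPs (x axis) of each tested gene of the lists named on the y axis, with the number tested in brackets, red for genes called higher, blue for genes called lower, grey for those past neither, and a black bar at the median. The 2 mitochondrial ribosomal subunits lie slightly left of zero with the other mitochondrial lists, and the cytosolic ribosomal proteins lie right of it.

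Of 10 genes known to regulate nuclear mitochondrial genes, 9 were tested, 3 fell and 1 rose. The fall was largest for Pprc1, a coactivator of the PGC-1 family, measured at 118 ± 4.86 CPM in NA MPs (SD, n = 4) and 136 ± 5.76 CPM in WT MPs (SD, n = 5), a log2 fold change of -0.20 (SE 0.041, edgeR adjusted p = 5.55e-05). Gabpa, the ETS protein of nuclear respiratory factor 2, had a log2 fold change of -0.13 (SE 0.045, edgeR adjusted p = 0.0202). Myc, a broad activator of genes of ribosomes and mitochondria, had a log2 fold change of -0.10 (SE 0.031, edgeR adjusted p = 0.00720). Mycn, its paralogue and the regulator that rose, stood at 19.4 ± 1.86 CPM in NA MPs (SD, n = 4) and 8.94 ± 1.20 CPM in WT MPs (SD, n = 5), a log2 fold change of 1.11 (SE 0.110, edgeR adjusted p = 4.37e-12). The others did not pass the test, with log2 fold changes of -0.12 for Nrf1 (nuclear respiratory factor 1), 0.097 for Gabpb1 (the partner of Gabpa), -0.017 for Yy1, 0.077 for the nuclear receptor Esrra and -0.12 for the coactivator Ppargc1b.

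The members were shorter than the typical tested gene. Their median exon length was 2255 bases, against 4426 over the 11612 tested genes with a value, while their median GC content was 49.8% against 49.7%. Across the 77 members the log2 fold change had a Spearman rho of 0.15 with GC content and of 0.067 with exon length. Over all tested genes these were 0.23 and -0.15. Genes are not independent replicates, and all points share the same 9 libraries. Exons of another gene overlap those of 32 members, 41.6%, against 38.5% of tested genes. Of the 12 that fell, 6 overlap another gene and 6 do not, so falls occurred in both kinds. The median log2 fold change was -0.045 in the overlapping and -0.046 in the other members.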

How the data were processed

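Poly(A) RNA of 9 samples of mouse bone marrow myeloid progenitors, 4 NA MP and 5 WT MP, was prepared with a TruSeq kit and sequenced on a NextSeq instrument. The submitters' processing notes name bcl2fastq, RSEM, DESeq2 and mm10; versions, the annotation and the strand setting are not given in the sources used here. The table deposited by the authors is named as raw RSEM expected counts per gene. Its columns were checked, and 97.3% to 97.6% of the values in each were whole multiples (within 0.02 reads) of a step, between 0.827 and 1.20, that was the inverse of the sample's DESeq2 size factor to within 0.236%. The deposited expected counts had thus been divided by size factors, and each column was divided by its step to give back the reads. This was found after the design was fixed; the fixed edgeR test was run on the reads, and the deposited values were tested as alternatives.

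Reads were rounded and tested in R 4.3.3 with edgeR 4.0.16 (filterByExpr with a minimum count of 10, TMM, robust quasi-likelihood test, Benjamini-Hochberg over the 11953 genes kept of 37980, threshold 0.05). DESeq2 1.42.0 and limma 3.58.1 (log2 of the deposited value plus 1) were alternatives. Totals of 5557718 to 8106140 reads per sample and edgeR's biological coefficient of variation of 3.49% set the precision. The fewest reads of a member in a sample were 69. Pairs of samples were compared by a chi-square per degree of freedom, which rises with spread beyond counting noise. It was 1.20 to 1.67 within WT MPs and 1.59 to 2.69 within NA MPs. Whether this spread is that between mice is not known. The fit was tested on simulated data. Symbols came from a table of Ensembl identifiers (32916 matched), coordinates, lengths and overlaps from GENCODE M21 (GRCm38, the assembly of mm10). The exact permutation test of a single value was two-sided over all choices of 4 of the 9 samples. Replicate numbers 1 to 4 occur in both groups but their samples did not deviate together (correlations of 0.0077, 0.0062, -0.019 and 0.053), so no block was used. Members, gene lists and tests were chosen with earlier results of these data known. Named members are all called ones up to 8 in each direction, the 3 highest and 3 lowest per length, the Mrps18 paralogues and Mrps30; Mrpl24, Mrpl38, Mrpl39, Mrpl44, Mrpl50, Mrps6, Mrps28, Mrps36 and Rbfa were singled out after their values were seen. Of other lists up to 4 called genes were open to naming, of the regulators all.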

Additional observations from a re-analysis of the deposited data

Results flagged for a closer look

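For 2 of 50 sets of values from 1 group, a sample lay far from the others by Dixon's test, and chance flags about 2.5 of 50. NA MP replicate 4 had 36.3 CPM of Mrps35, while the other NA MP samples ranged from 39.0 to 39.5 CPM, and its value lay within the range of the WT MP samples. WT MP replicate 1 had 56.4 CPM of Mrps30, while the other WT MP samples ranged from 46.5 to 47.6 CPM. Without this sample the log2 fold change of Mrps30 was -0.064.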

How the results depend on the processing

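The 12 lower calls became 6 with DESeq2, 7 at an adjusted p under 0.01 and 6 without the members whose exons overlap another gene. The 1 higher call became 0 with DESeq2, at an adjusted p under 0.01 and with library size only (15 lower), which moved the median of all genes to -0.022. Leaving out each sample in turn gave 0 to 1 members called higher, 9 to 12 called lower, 3638 to 3959 calls over all genes and medians of -0.060 to -0.039 (large subunit) and -0.054 to -0.022 (small subunit). The higher call was lost without NA MP replicate 1, WT MP replicate 3 or WT MP replicate 4, and was Mrpl24 in place of Mrpl17 without NA MP replicate 2. The correction for GC content and length moved the small subunit median to -0.069 and the large to -0.070, with 15 lower calls. The cause of these shifts was not tested, beyond the fewer genes or samples that some alternatives hold. Both alternatives on the deposited values, added after the data were seen, left the counts within 1.5 times. They gave 12 lower and 1 higher calls in edgeR and 14 and 1 in limma. With the replicate number as a block (replicates 1 to 4) 13 members were lower, 1 higher, and 3724 genes were called in all. The same samples without the block, a fit that was not planned either, gave 12, 1 and 3711. Same-numbered samples share only a number. The median of neither subunit changed sign in these alternatives, and neither did the log2 fold change of the 19 members followed through them, while the median of all genes, near zero throughout, was positive in some. Mrps22, Mrps17, Mrpl36, Mrpl42, Mrpl51 and Mrpl19 kept their calls in all 22 alternatives, Mrpl14 in 21, Mrpl22 in 18, and Mrpl17 and Mrps18b in 15. Calls were gained by Mrpl18 in 6 alternatives and by Mrpl12 and Mrps18c in 1 each. At this depth the median standard error of a member's log2 fold change was 0.065, so changes near that size were not detectable.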
